A study of Homo sapiens with 4 samples.

Results

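ANGPTL4 and 8 further genes of lipid handling (ANGPTL2, LPL, LIPG, LPIN1, PLIN2, CPT1A, ACADVL and HADHA) are described here, 9 of the 63241 genes in a table of RNA-seq counts. Each was found by its symbol in the annotation of the table. ANGPTL4 was chosen because it had the largest rise among well-measured genes, so its own change is given as a description with no test. The other 8 were chosen for their place in lipid metabolism.

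The cells were FT190, human cells labelled as ovarian epithelial with a WT genotype; the line is known to derive from immortalised secretory cells of the fallopian tube. The 2 shSMARCA4 libraries came from cells expressing a short hairpin RNA against SMARCA4, the ATPase of BAF chromatin remodelling complexes, and the 2 control libraries from cells with the PLKO vector. The labels name 1 hairpin treatment, SMARCA4_sh1, for both knockdown libraries, so an effect of that hairpin on other transcripts cannot be told apart from the loss of SMARCA4. Nothing in the labels ties the libraries of a group to different cultures, so the p-values reflect only how these libraries vary, which may be technical.

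Lipoprotein lipase (LPL) cuts triglycerides of blood lipoproteins outside the cell, and ANGPTL4 is a secreted protein that inhibits it. Endothelial lipase (LIPG), of the same family, acts mainly on the phospholipids of high density lipoproteins. Fatty acids taken up by cells are built into triglycerides, a route that passes through lipin 1 (LPIN1), stored in droplets coated by perilipin 2 (PLIN2), or moved into mitochondria by CPT1A and shortened by the enzymes encoded by ACADVL and HADHA. Fatty acids also activate the nuclear receptors of the PPAR family, and ANGPTL4, PLIN2 and CPT1A are known targets of these receptors. Hypoxia and glucocorticoids are further known inducers of ANGPTL4.

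Total counts were 28536665 and 27137414 in the shSMARCA4 libraries and 33641343 and 32618516 in the control libraries. SMARCA4 had 985 and 1003 counts in the shSMARCA4 libraries and 5605 and 5240 counts in the control libraries, a log2 fold change of -2.24 (SE 0.052). Levels are given in CPM, counts per 1000000 on library totals scaled as described under processing. Within a group, the 2 libraries varied beyond counting error, with a chi-square of 1.96 per degree of freedom in shSMARCA4 and 6.94 in control, and each entered as 1 replicate. All 8 markers of tubal secretory epithelium had counts, with summed levels of 1299 and 1304 CPM in the shSMARCA4 libraries and 1923 and 1814 CPM in the control libraries, among them the lineage factor PAX8 at 63.2 and 63.5 CPM in shSMARCA4 and 57.4 and 59.8 CPM in control. The keratin KRT7 had 307 and 302 CPM in shSMARCA4 and 631 and 561 CPM in control. KRT8 had 558 and 562 CPM in shSMARCA4 and 773 and 746 CPM in control. OVGP1 and EPCAM, other defining markers of that epithelium, stayed under 1 CPM in every library. The 6 adipocyte markers summed to 1.56 to 1.69 CPM in the shSMARCA4 libraries and 1.49 to 1.55 CPM in the control libraries, with ADIPOQ and CIDEC at 0. The 6 macrophage markers summed to 3.98 to 4.14 CPM in shSMARCA4 and 3.54 to 3.66 CPM in control, with CD163 and AIF1 at 0. The 6 hepatocyte markers summed to 7.90 to 9.18 CPM in shSMARCA4 and 5.03 to 7.41 CPM in control, with APOA1 and APOB at 0, and the 6 endothelial markers to 1.00 to 1.23 CPM in shSMARCA4 and 1.07 to 1.15 CPM in control. The 5 ciliated-cell markers found in the table summed to 7.28 to 7.43 CPM in shSMARCA4 and 6.83 to 7.31 CPM in control. Most of the hepatocyte sum was SERPINA1, and most of the ciliated sum DNAH5. The 6 fibroblast markers summed to 1664 to 1791 CPM in shSMARCA4 and 2212 to 2271 CPM in control. Most of this was COL1A1, at 1540 and 1663 CPM in shSMARCA4 and 1968 and 2004 CPM in control. LUM had 107 and 110 CPM in shSMARCA4 and 219 and 237 CPM in control. PDGFRB had 15.2 and 16.7 CPM in shSMARCA4 and 22.9 and 28.0 CPM in control. PDGFRA had 1.59 and 1.49 CPM in shSMARCA4 and 1.34 and 1.80 CPM in control. COL1A2 and DCN, also fibroblast markers, stayed under 1 CPM in every library. Of the secretory markers 1 rose, WT1 (log2 fold change 0.35, SE 0.078), and PAX8 did not pass (0.11, SE 0.047). The 4 that fell were KRT7 (-0.97, SE 0.055), CD24 (-0.79, SE 0.051), KRT8 (-0.44, SE 0.038) and KRT18 (-0.23, SE 0.038). Of the fibroblast markers 3 fell, LUM (-1.07, SE 0.048), PDGFRB (-0.67, SE 0.10) and COL1A1 (-0.31, SE 0.045). Of the macrophage markers CSF1R rose (0.51, SE 0.16) and CD14 fell (-1.93, SE 0.49). The part of these changes in the results below was not tested. In these bulk libraries, fewer cells of a type and less RNA per cell cannot be told apart.

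The secreted inhibitor ANGPTL4 (ENSG00000167772.12, chromosome 19, 8364155 to 8374370, plus strand of hg38) had the largest rise of any protein-coding gene with a mean of at least 5 CPM over the libraries. It had 14.98 and 15.25 CPM in the shSMARCA4 libraries, against 1.71 and 2.23 CPM in the control libraries. The raw counts behind these levels were 434 and 421 in shSMARCA4 and 56 and 72 in control. Both knockdown libraries therefore lay far above both controls, and they lay closer to each other than the controls did. The group means were 15.1 ± 0.192 CPM in shSMARCA4 and 1.97 ± 0.371 CPM in control (SD, n = 2 each), a ratio of 7.68, and the fitted log2 fold change was 2.94 (SE 0.13). Over the alternatives tried it ranged from 2.76, without control replicate 1, to 3.14, without control replicate 2. By the rule that chose ANGPTL4, the next gene was the cytokine IL6, at a log2 fold change of 1.86 (SE 0.096), followed by CMPK2, a mitochondrial nucleotide kinase, at 1.79 (SE 0.16). With no floor on the level, 2 of the 18781 genes tested had larger log2 fold changes, the pseudogene ENSG00000251099 and the transcription factor gene KLF17, both named after their values were seen. Neither had a mean above 0.490 CPM.

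**Figure D1:**
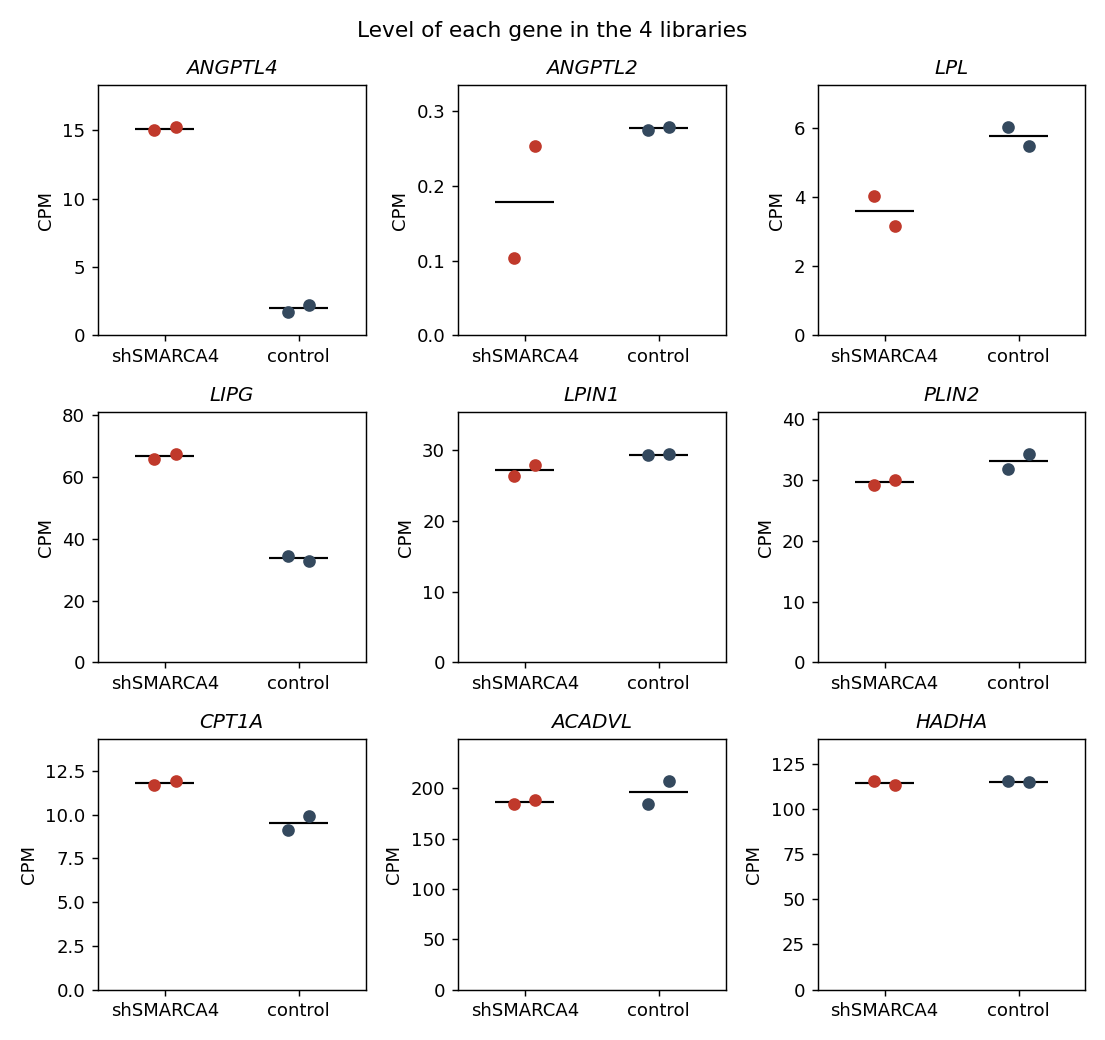
Levels of the 9 genes in each library, in CPM on linear axes from 0, with shSMARCA4 libraries on the left and control libraries on the right of each panel. Points are single libraries and bars are group means. ANGPTL4 stood at 14.98 and 15.25 CPM in shSMARCA4 and 1.71 and 2.23 CPM in control, while ACADVL and HADHA overlapped between the groups.

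The bases just upstream of the start of ANGPTL4 are shown with those of LIPG, which also rose, and of PLIN2, a PPAR target with a smaller difference in the other direction. Each is the 250 bases before the transcription start in RefSeq (GRCh38.p14), printed along the strand of the gene. Their starts are those of the genes in the count table. They cover chr19:8363905-8364154 for ANGPTL4, chr18:49561807-49562056 for LIPG and chr9:19127493-19127742 on the minus strand for PLIN2. Capitals mark every match, on either strand, to the motifs searched.
ANGPTL4: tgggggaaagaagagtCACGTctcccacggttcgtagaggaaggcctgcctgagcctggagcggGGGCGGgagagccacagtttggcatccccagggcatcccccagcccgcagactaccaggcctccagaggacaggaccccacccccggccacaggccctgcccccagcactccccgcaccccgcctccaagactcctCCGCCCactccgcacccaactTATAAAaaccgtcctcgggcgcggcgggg
LIPG: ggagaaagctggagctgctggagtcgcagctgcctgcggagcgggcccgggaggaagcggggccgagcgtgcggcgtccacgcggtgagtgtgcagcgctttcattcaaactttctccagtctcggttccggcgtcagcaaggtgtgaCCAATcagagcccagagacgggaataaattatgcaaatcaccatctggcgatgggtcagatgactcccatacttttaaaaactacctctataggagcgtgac
PLIN2: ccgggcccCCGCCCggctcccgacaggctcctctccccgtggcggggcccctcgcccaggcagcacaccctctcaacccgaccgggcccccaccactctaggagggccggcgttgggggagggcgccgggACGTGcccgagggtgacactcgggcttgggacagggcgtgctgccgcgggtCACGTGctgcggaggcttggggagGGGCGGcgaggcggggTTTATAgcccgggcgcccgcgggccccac
The letters searched were those of the core promoter box TATAAA, the box named for its letters CCAAT, the Sp1-type box GGGCGG, the E-box CACGTG, the hypoxia element core ACGTG (contained in the E-box), the nuclear receptor core AGGTCA, the direct repeat of AGGTCA with 1 base of any kind between the copies (bound by PPAR with RXR) and the AP-1 site TGAGTCA. The ANGPTL4 window held TATAAA 29 bases before the start, letters found in 10.7% of 35116 promoter windows of the same length. It also held 2 Sp1-type boxes (42.6% of windows have at least 1) and 1 ACGTG, 234 bases before the start (18.5% of windows). PLIN2 held a match to the TATA box, in the other orientation, also 29 bases before the start, 2 Sp1-type boxes, 1 E-box (6.34% of windows) and 3 matches to ACGTG counted on both strands, of which a pair lie in the E-box. LIPG held 1 match to CCAAT (32.0% of windows) and no other motif of the list. None of the 3 windows held AGGTCA (12.1% of windows), the direct repeat (0.0171%) or TGAGTCA (4.20%). These matches describe letters in short windows and are no evidence of binding, and elements farther from the start were not searched.

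Of the other angiopoietin-like genes, most were too low to test. ANGPTL2, a secreted protein of the same family, had 3 and 7 counts in the shSMARCA4 libraries and 9 and 9 counts in the control libraries. These are 0.104 and 0.254 CPM in shSMARCA4 and 0.274 and 0.279 CPM in control, under the filter on low counts, so the gene was not tested and no fold is given. ANGPTL2 lies on chromosome 9 within the span of RALGPS1, a gene of the opposite strand, and counting did not use strand. Of the 10 genes listed for the family, the angiopoietins ANGPT1 and ANGPT2 included, only ANGPTL6 was tested beside ANGPTL4. ANGPTL6 stood at 6.32 and 7.64 CPM in shSMARCA4 and 4.97 and 5.80 CPM in control, with a log2 fold change of 0.37 (SE 0.14) and adjusted p = 0.0725 (edgeR, quasi-likelihood). It passed without shSMARCA4 replicate 1 (adjusted p = 0.0243), without control replicate 2 (adjusted p = 0.00269), with library totals alone (0.0444) and with a replicate block (0.0219). ANGPTL8, a secreted member that takes part in the control of lipoprotein lipase, had 2 and 2 counts in shSMARCA4 and 2 and 3 in control.

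The genes of both extracellular lipases changed, in opposite directions. Across all 18781 genes tested, 29.7% were called at an adjusted p under 0.05, 13.8% as higher and 15.8% as lower. Of the 7 members tested beside ANGPTL4, 2 rose, 1 fell and 4 did not pass. ANGPTL4 was chosen on this same contrast, and with so few genes nothing is read from the share. LIPG (chromosome 18, 49562057 to 49599185, plus strand), which encodes endothelial lipase, had 66.0 and 67.6 CPM in the shSMARCA4 libraries and 34.4 and 33.0 CPM in the control libraries. Both knockdown libraries lay well above both controls, at a ratio of group means of 1.98. LIPG rose with a log2 fold change of 0.99 (SE 0.050) and adjusted p = 5.95e-06 (edgeR, quasi-likelihood), a call kept in all 10 alternatives. LPL (chromosome 8, 19939253 to 19967259, plus strand), the lipase that ANGPTL4 inhibits, had 4.04 and 3.15 CPM in shSMARCA4 and 6.04 and 5.49 CPM in control. The groups did not overlap, and the knockdown libraries differed between themselves by more than the controls did. LPL fell with a log2 fold change of -0.68 (SE 0.15) and adjusted p = 0.00919 by edgeR. The LPL call missed the threshold when genes of low count stayed in (adjusted p = 0.0504 by edgeR).

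Per kilobase of transcript, the balance between inhibitor and lipases differed between the groups. The level of ANGPTL4 per kilobase was 7.08 and 9.23 times that of LPL in the shSMARCA4 libraries and 0.539 and 0.776 times that of LPL in the control libraries. Set against LIPG per kilobase, ANGPTL4 stood at 1.27 and 1.26 times in shSMARCA4 and 0.278 and 0.378 times in control. ANGPTL4 thus exceeded both lipases in the knockdown libraries and neither in the controls, a description that rests on the same rise that chose the gene. Without scaling to length, ANGPTL4 stood below LIPG in shSMARCA4 as well, at means of 15.1 CPM for ANGPTL4 and 66.8 CPM for LIPG. LIPG exceeded LPL per kilobase in all 4 libraries, by 5.58 and 7.31 times in shSMARCA4 and 1.94 and 2.05 times in control.

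Genes that process or hold these proteins also changed. Of the 18 genes listed as extracellular lipases and partners, 13 were tested. Of these, 3 rose and 3 fell, LIPG and LPL included, beside 13.8% higher and 15.8% lower over all genes. The median log2 fold change was -0.14, beside 0.00 for all genes tested. FURIN, a proprotein convertase known to cleave members of the ANGPTL and lipase families, had 38.1 and 41.7 CPM in shSMARCA4 and 83.9 and 82.7 CPM in control. It fell by 1.06 on the log2 scale (SE 0.054, adjusted p = 5.95e-06 by edgeR). A related convertase gene, PCSK7, had 33.8 and 35.5 CPM in shSMARCA4 and 85.4 and 71.4 CPM in control, and fell by 1.18 (SE 0.082). Neither gene's groups overlapped, and both calls were kept in all 10 alternatives. Both were named for the smallest adjusted p among genes of the list that fell, so separate groups were largely fixed by that choice. The convertases PCSK5 (0.38, SE 0.18) and PCSK6 (-0.45, SE 0.51) did not pass. SEL1L, an adaptor of protein quality control in the endoplasmic reticulum that lipoprotein lipase needs for its maturation in mice, rose by 0.19 (SE 0.038), and the heparan sulfate proteoglycan SDC1 by 0.36 (SE 0.11). Without shSMARCA4 replicate 1 neither passed (adjusted p = 0.0564 for SEL1L and 0.0583 for SDC1, by edgeR), which left 1 gene of the list higher. The lipase maturation factor LMF1 stood at -0.68 (SE 0.28) and LMF2 at -0.09 (SE 0.057), neither past the test. GPIHBP1, the endothelial anchor of lipoprotein lipase, had 1 count in shSMARCA4 replicate 1 and 0 in the other libraries, and APOC2, the activator of the enzyme, had 0 in all.

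**Figure D2:**
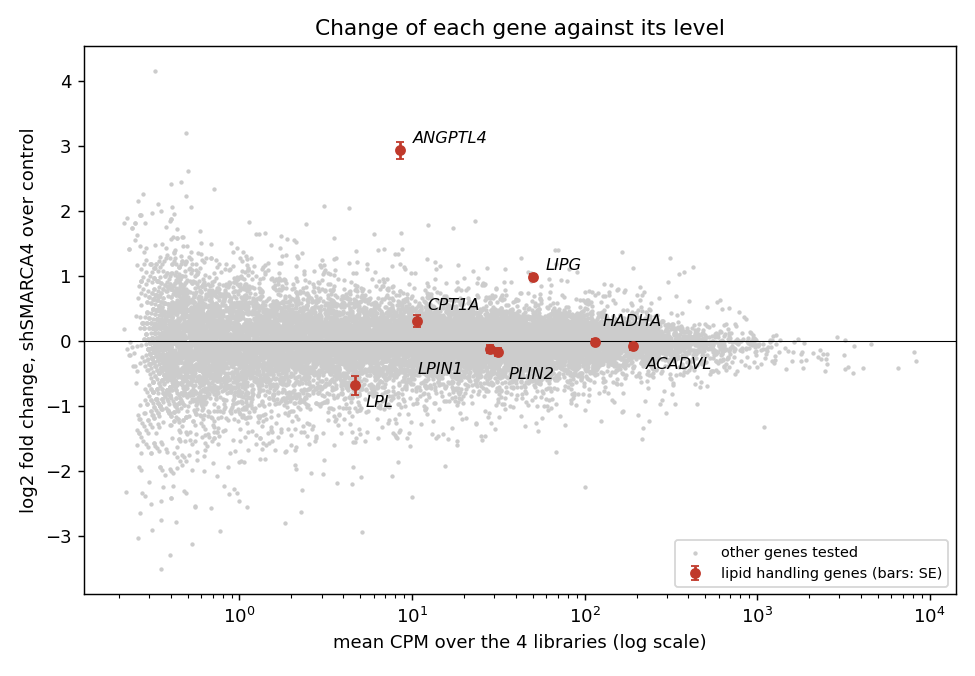
Log2 fold change of shSMARCA4 over control against the mean level over the 4 libraries in CPM on a log axis, for the 18781 genes tested (grey) and the 8 lipid handling genes tested (red, with SE bars). ANGPTL4 at 2.94 and LIPG at 0.99 lie above the bulk of genes at their level, LPL at -0.68 lies below 0, and HADHA and ACADVL lie near 0.

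Neither member of triglyceride building and storage passed the test. LPIN1 (chromosome 2, 11746588 to 11827409, plus strand), a phosphatidate phosphatase that makes diacylglycerol and also acts as a transcriptional coactivator, had 26.4 and 27.9 CPM in shSMARCA4 and 29.3 and 29.5 CPM in control. The groups did not overlap, but the log2 fold change of -0.12 (SE 0.060) did not pass (adjusted p = 0.182 (edgeR, quasi-likelihood)), nor did it in any alternative. PLIN2 (chromosome 9, 19115761 to 19127492, minus strand), the droplet coat protein, had 29.2 and 30.0 CPM in shSMARCA4 and 31.8 and 34.3 CPM in control. The groups did not overlap, but the gap between them was smaller than the difference between the control libraries, and the log2 fold change of -0.16 (SE 0.061) did not pass (adjusted p = 0.0800 by edgeR). PLIN2 passed as lower without control replicate 1 (-0.21, adjusted p = 0.00586 by edgeR) and with a replicate block (adjusted p = 0.0446).

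In the wider list for glycerolipid synthesis, 16 of 20 genes were tested. Of these, 3 rose and 2 fell, beside 13.8% higher and 15.8% lower over all genes, with a median log2 fold change of 0.00. GPAT3, which performs the first acylation of glycerol 3-phosphate, had 14.12 and 14.02 CPM in shSMARCA4 and 7.10 and 6.45 CPM in control, and rose by 1.05 (SE 0.096, adjusted p = 9.00e-05 by edgeR). Its relatives GPAM (0.08, SE 0.054) and GPAT4 (-0.10, SE 0.050) did not pass. Both acyltransferase genes that follow in the pathway and passed moved apart, AGPAT5 at 0.33 (SE 0.052) and AGPAT4 at -0.36 (SE 0.074). The phosphatase gene PLPP3 rose by 0.48 (SE 0.091). LPIN2, a paralogue of LPIN1, fell by 0.19 (SE 0.054), a call lost without shSMARCA4 replicate 1 (adjusted p = 0.180) or 2 (adjusted p = 0.116), which left 1 gene of the list lower. DGAT1 and DGAT2, the enzymes of the last step, stood at 0.29 (SE 0.13) and -0.07 (SE 0.20) and did not pass.

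Of 20 genes listed for lipid droplets and lipolysis, 14 were tested, 4 fell and 0 rose, a share called near the 29.7% over all genes, and the median on the log2 scale was -0.04. PNPLA2, the triglyceride lipase of droplets, had 32.1 and 30.8 CPM in shSMARCA4 and 43.6 and 46.0 CPM in control (-0.51, SE 0.056, adjusted p = 2.52e-04 by edgeR). ABHD5, the coactivator of PNPLA2, stood at -0.49 (SE 0.067), and MGLL, which cuts monoglycerides, at -0.59 (SE 0.065). Groups overlapped in none of these genes, and their calls were kept in all 10 alternatives. They were named for the smallest adjusted p among genes of the list that fell, so separate groups were largely fixed by that choice. FITM2, a protein of droplet formation named after its value was seen, fell by 0.37 (SE 0.10), a call lost without shSMARCA4 replicate 2 (adjusted p = 0.159 by edgeR) and with DESeq2. The lipase of diglycerides LIPE (0.03, SE 0.20), the PNPLA2 inhibitor G0S2 (0.09, SE 0.16), the droplet protein HILPDA (0.14, SE 0.13) and PLIN3 (-0.05, SE 0.044) did not pass. The count of 0 higher became 1 with RLE size factors, a 1 CPM filter or a replicate block, and 2 with library totals alone. That count also grew without shSMARCA4 replicate 1, control replicate 1 or control replicate 2.

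Of the mitochondrial members, CPT1A was higher in the knockdown libraries and ACADVL and HADHA were not. CPT1A (chromosome 11, 68754883 to 68841916, minus strand), the outer membrane enzyme that controls the entry of long-chain fatty acids, had 11.7 and 11.9 CPM in shSMARCA4 and 9.15 and 9.92 CPM in control. The groups did not overlap, and CPT1A rose by 0.31 (SE 0.092, adjusted p = 0.0336 (edgeR, quasi-likelihood)). This call was lost without shSMARCA4 replicate 1 (adjusted p = 0.109) or 2 (adjusted p = 0.165), with DESeq2 (adjusted p = 0.142) and when genes of low count stayed in (adjusted p = 0.0848). ACADVL (chromosome 17, 7219844 to 7225265, plus strand), the first dehydrogenase for very long chains, had 185 and 188 CPM in shSMARCA4 and 185 and 207 CPM in control. One control library lay at the knockdown level and the other above it, and the log2 fold change of -0.07 (SE 0.055) did not pass (adjusted p = 0.363 by edgeR). Without control replicate 1 ACADVL was called as lower (-0.15, adjusted p = 7.15e-04), and without control replicate 2 its sign turned (0.011, adjusted p = 0.866). HADHA (chromosome 2, 26190655 to 26244672, minus strand), the alpha subunit of the trifunctional protein, had 115 and 113 CPM in shSMARCA4 and 115 and 115 CPM in control. The groups overlapped, at a log2 fold change of -0.01 (SE 0.041, adjusted p = 0.882 by edgeR). HADHB, the beta subunit, whose gene starts 267 bases from HADHA on the other strand, stood at 0.00 (SE 0.053).

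All 22 genes listed for oxidation in mitochondria, members included, were tested. Of these, 2 rose (CPT1A and ECI2) and 0 fell, beside 13.8% higher and 15.8% lower over all genes. Their median log2 fold change was -0.08. ECI2, an enoyl-CoA isomerase, stood at 0.13 (SE 0.044, adjusted p = 0.0464 by edgeR). Neither call held without shSMARCA4 replicate 1 or 2, which left 0 genes higher. The count of 0 lower became 4 with a replicate block, 2 with a 1 CPM filter and 1 with RLE size factors. That count also grew without control replicate 1, control replicate 2 or shSMARCA4 replicate 2. The carnitine carriers and transferases SLC25A20 (-0.10, SE 0.088) and CPT2 (0.14, SE 0.058), the medium-chain dehydrogenase ACADM (-0.03, SE 0.043) and the thiolase ACAA2 (-0.05, SE 0.049) did not pass.

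Peroxisomal oxidation genes changed in both directions. Of 16 listed, 15 were tested, 5 fell and 2 rose, beside 15.8% lower and 13.8% higher over all genes. The median on the log2 scale was -0.14. The branched-chain acyl-CoA oxidase ACOX3 had 5.49 and 6.09 CPM in shSMARCA4 and 10.1 and 10.2 CPM in control (-0.81, SE 0.11, adjusted p = 6.18e-04 by edgeR). This call was kept in all 10 alternatives. AMACR (-0.34, SE 0.087), a racemase, and the transporter gene ABCD3 (-0.14, SE 0.041), named after its value was seen, were among the others that fell. PHYH, of alpha-oxidation, rose by 0.25 (SE 0.067). ACOX2 rose at a level below 1 CPM, with 0.656 and 0.688 CPM in shSMARCA4 and 0.152 and 0.248 CPM in control. With DESeq2 the AMACR (adjusted p = 0.0868), ABCD3 (0.137) and PHYH (0.0801) calls were lost. The list then held 2 genes that fell and 0 that rose. With no filter on low counts it held 1 that fell and 1 that rose, and the same calls were lost. Without shSMARCA4 replicate 1 the list held 1 gene that fell and 1 that rose, and without shSMARCA4 replicate 2 it held 2 and 1.

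Of 21 genes listed for the uptake and activation of fatty acids and lipoproteins, 18 were tested, 5 fell and 0 rose, a share called near the 29.7% over all genes, with a median log2 fold change of -0.18. ACSL4, which attaches coenzyme A to polyunsaturated fatty acids, had 281 and 278 CPM in shSMARCA4 and 418 and 384 CPM in control, and fell by 0.52 (SE 0.047, adjusted p = 9.20e-05 by edgeR). The endocytic receptor LRP1 fell by 0.34 (SE 0.049) and the lipoprotein receptor SCARB1 by 0.25 (SE 0.049). VLDLR (-0.47, SE 0.12) and ACSL5 (-0.53, SE 0.13), named after their values were seen, were the others. The SCARB1 call was lost without shSMARCA4 replicate 1 (adjusted p = 0.0813 by edgeR). The count of 0 higher became 2 with library totals alone or a replicate block. The count of 5 lower became 3 with no filter on low counts. Both counts grew without control replicate 1. CD36, the fatty acid translocase, had 4 and 1 counts in shSMARCA4 and 8 and 4 in control and was not tested.

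**Figure D3:**
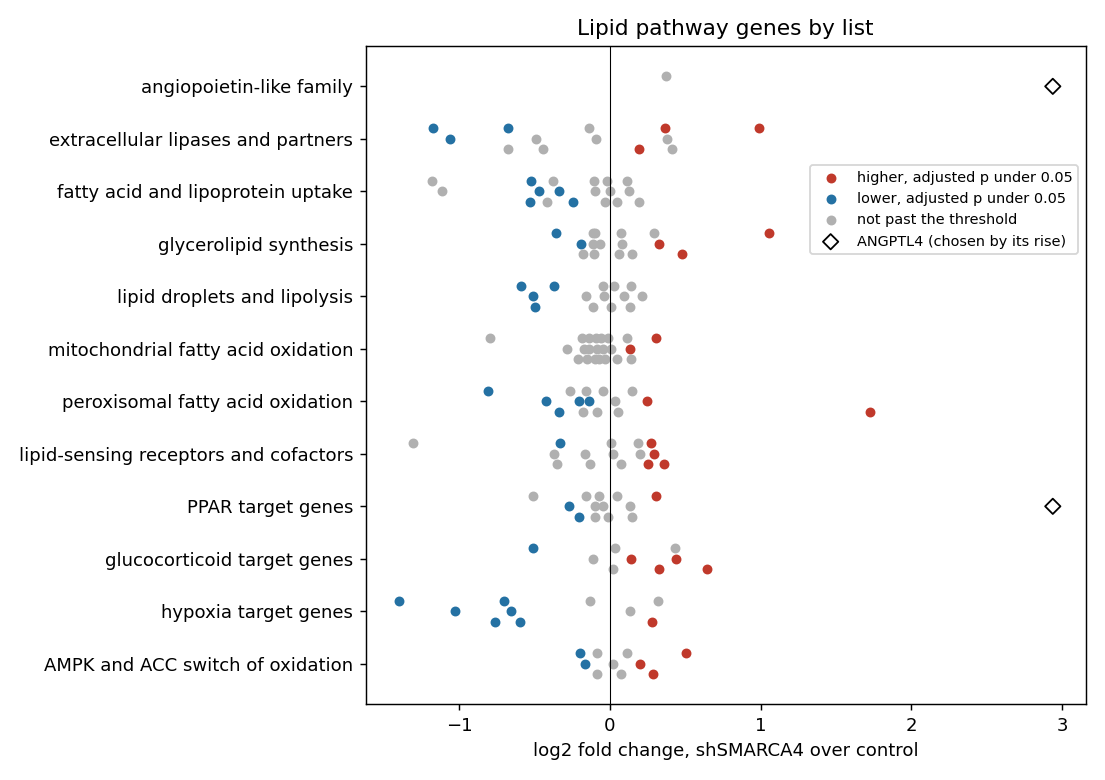
Log2 fold change of shSMARCA4 over control for each tested gene of 12 lists of lipid metabolism and its regulation, 1 point a gene. Red and blue points are higher and lower at an adjusted p under 0.05, grey points did not pass, and the open diamond is ANGPTL4, shown apart since it was chosen by its rise. In the lists of the angiopoietin-like family and PPAR targets, ANGPTL4 lies at 2.94, and its distance from the others follows from that choice.

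Other genes that share the known inducers of ANGPTL4 are described next. Whether any of these inducers had a part in its rise was not tested. Of 20 PPAR target genes, 13 were tested beside ANGPTL4. Of these, 1 rose (CPT1A) and 2 fell, UCP2 among them, beside 13.8% higher and 15.8% lower over all genes. Their median log2 fold change was -0.07. UCP2, a carrier of the inner mitochondrial membrane, stood at -0.27 (SE 0.058). PDK4, a pyruvate dehydrogenase kinase and another PPAR target, had 1 and 0 counts in shSMARCA4 and 3 and 2 in control and was not tested. The counts of this list changed without shSMARCA4 replicate 1 (0 higher and 1 lower), shSMARCA4 replicate 2 (0 and 0), control replicate 1 (4 lower) and control replicate 2 (2 higher). Of the receptors, PPARD had 35.1 and 36.8 CPM in shSMARCA4 and 28.5 and 30.9 CPM in control, and rose by 0.28 (SE 0.063, adjusted p = 0.0101 by edgeR), a call lost without shSMARCA4 replicate 2 (adjusted p = 0.0681). PPARA (0.19, SE 0.077) and PPARG (-0.37, SE 0.13) did not pass. Per kilobase, PPARD stood at 9.67 in shSMARCA4 and 7.99 in control, above PPARG at 2.27 in shSMARCA4 and 2.93 in control and PPARA at 1.97 in shSMARCA4 and 1.73 in control, in CPM per kilobase.

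Of 16 receptors and cofactors listed, 15 were tested, 4 rose and 1 fell, beside 13.8% higher and 15.8% lower over all genes. The median on the log2 scale was 0.02. The corepressor gene NCOR1 rose by 0.25 (SE 0.041), a call kept in all 10 alternatives. The liver X receptor gene NR1H2 (0.29, SE 0.075) and the coactivator gene PPARGC1B (0.36, SE 0.094) were the others that rose. The PPARGC1B call was lost without shSMARCA4 replicate 1 (adjusted p = 0.0777) or 2 (adjusted p = 0.0972), by edgeR. Without shSMARCA4 replicate 2 the list held 2 genes that rose and 2 that fell, and without control replicate 1 and control replicate 2 it held 3 and 2 that fell.

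Of 10 hypoxia targets listed, all tested, 6 fell and 1 rose, beside 15.8% lower and 13.8% higher over all genes, and the median on the log2 scale was -0.63. The mitophagy receptor BNIP3 had 48.6 and 50.5 CPM in shSMARCA4 and 70.5 and 79.2 CPM in control (-0.59, SE 0.062, adjusted p = 1.97e-04 by edgeR), and the pyruvate dehydrogenase kinase PDK1 stood at -0.77 (SE 0.069, adjusted p = 8.89e-05). ADM (-1.03, SE 0.14), NDRG1 (-0.66, SE 0.098), EGLN3 (-0.70, SE 0.13) and CA9 (-1.40, SE 0.40) were the others that fell. Of these, all but ADM were named after their values were seen. CA9 stood below 1 CPM, with 6 and 8 counts in shSMARCA4 and 18 and 25 in control. The count of 6 lower was 5 with DESeq2, with either other filter on low counts, and without shSMARCA4 replicate 1, shSMARCA4 replicate 2 or control replicate 2, and 7 without control replicate 1. VEGFA was the one that rose (0.28, SE 0.083), a call lost without shSMARCA4 replicate 2 (adjusted p = 0.0501, which left 0 higher). The CA9 call was lost without shSMARCA4 replicate 1 (adjusted p = 0.176), shSMARCA4 replicate 2 (0.0541) or control replicate 2 (0.151).

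Of 10 glucocorticoid targets, 9 were tested, 4 rose and 1 fell, beside 13.8% higher and 15.8% lower over all genes. The median on the log2 scale was 0.14. The kinase gene SGK1 had 132 and 124 CPM in shSMARCA4 and 90.8 and 73.5 CPM in control (0.64, SE 0.084, adjusted p = 6.39e-04 by edgeR). MT2A (0.44, SE 0.096), DUSP1 (0.33, SE 0.082) and FKBP5 (0.14, SE 0.040) rose, and KLF9 (-0.51, SE 0.12) fell. TSC22D3 (0.02, SE 0.10) and PER1 (0.03, SE 0.11) did not pass. With DESeq2, MT2A (adjusted p = 0.0657) and FKBP5 (0.0976) missed the threshold, which left 2 higher. With no filter on low counts, MT2A (0.0803) and DUSP1 (0.105) were among those that missed by edgeR, which left 1 higher and 0 lower. FKBP5 was not called without shSMARCA4 replicate 1 (adjusted p = 0.232) or 2 (0.182), and KLF9 was not called without shSMARCA4 replicate 1 (0.0567, which left 0 lower). Without control replicate 2 the list held 2 that fell.

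Genes of the switch between synthesis and oxidation made up the last list. Malonyl-CoA, made by the carboxylases ACACA and ACACB, inhibits CPT1A, and AMP-activated kinase (AMPK) inhibits the carboxylases. Of 11 listed, 10 were tested, 3 rose and 2 fell, beside 13.8% higher and 15.8% lower over all genes. The median was 0.05 on the log2 scale. The AMPK subunits PRKAG2 (0.50, SE 0.051), PRKAB2 (0.29, SE 0.046) and PRKAG1 (0.20, SE 0.047) rose. The catalytic subunits PRKAA2 (-0.20, SE 0.056) and PRKAA1 (-0.16, SE 0.040) fell. With DESeq2 the PRKAG1 (adjusted p = 0.0672), PRKAA2 (0.0824) and PRKAA1 (0.0662) calls were lost, leaving 2 genes higher and 0 lower. The list also held 0 lower with library totals alone and with no filter on low counts. The carboxylase genes ACACA (0.08, SE 0.052) and ACACB (-0.08, SE 0.11) and MLYCD (0.02, SE 0.12), whose product degrades malonyl-CoA, did not pass. The PRKAG1 and PRKAA1 calls were lost without shSMARCA4 replicate 1 (adjusted p = 0.120 and 0.113 by edgeR), and without shSMARCA4 replicate 2 those of PRKAG1, PRKAA1 and PRKAA2 were lost (0.0592, 0.190 and 0.212), leaving 1 and 0 genes lower.

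Over the 12 lists together, 138 genes that are no members were tested, of which 20 rose and 29 fell, 35.5% beside 29.7% of all genes tested. The lists share genes and are small, and nothing is read from this share. Of these 49 calls, 23 were kept in every alternative that gave a value and 26 were lost in at least 1.

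The order of the members by level per kilobase changed in the middle of the range. ACADVL was highest, at 80.6 ± 0.996 CPM per kilobase in shSMARCA4 and 84.8 ± 6.85 in control (SD, n = 2 each), followed by HADHA at 37.5 ± 0.539 in shSMARCA4 and 37.8 ± 0.0468 in control and PLIN2 at 15.7 ± 0.299 in shSMARCA4 and 17.6 ± 0.931 in control. ANGPTL4 came 4th of 9 in the shSMARCA4 libraries, at 8.13 ± 0.103, and 8th in the controls, at 1.06 ± 0.199. LIPG was 5th in both groups, at 6.42 ± 0.104 in shSMARCA4 and 3.24 ± 0.0920 in control, and LPIN1 was 6th in shSMARCA4 at 5.08 ± 0.188 and 4th in control at 5.50 ± 0.0272. CPT1A was 7th in shSMARCA4 at 2.27 ± 0.0343 and 6th in control at 1.83 ± 0.105. LPL was 8th in shSMARCA4 at 1.01 ± 0.177 and 7th in control at 1.62 ± 0.110, and ANGPTL2 was last in both, at 0.0520 ± 0.0309 in shSMARCA4 and 0.0806 ± 0.000935 in control. The values of neighbours in this order did not overlap between genes within either group, but CPT1A (1.76 and 1.91) and LPL (1.70 and 1.55) in the controls were separated by less than the SD of either.

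The genes whose profile over the 4 libraries was nearest to that of ANGPTL4 were sought among 11984 other genes that averaged 5 CPM or more. Nearness was the Euclidean distance between log2 levels centred on each gene's mean, so it favours genes with large rises. The 5 nearest were IL6 (distance 0.962), CEMIP (0.986), a hyaluronan-degrading factor, CMPK2 (1.07), the chemokine CCL5 (1.13) and the interferon-induced GTPase GBP4 (1.21). CEMIP stood at 25.4 and 27.7 CPM in shSMARCA4 and 7.23 and 8.65 CPM in control. None of them stood in a list of lipid genes.

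The genes around ANGPTL4 on chromosome 19 were also read. ANGPTL4 was chosen by its rise, so smaller changes nearby were largely fixed by that choice. Of 9 tested genes within 100 kb, 2 rose and 0 fell, beside 13.8% higher and 15.8% lower over all genes. Their log2 fold changes ran from -0.05 to 0.37, with a median of 0.08. CD320, a receptor for cobalamin carriers, rose by 0.37 (SE 0.072, adjusted p = 0.00499 by edgeR), and the vesicle GTPase gene RAB11B, 15990 bases beyond ANGPTL4, by 0.21 (SE 0.056, adjusted p = 0.0211). The RAB11B call was lost without shSMARCA4 replicate 1 (adjusted p = 0.116) or 2 (adjusted p = 0.15). RAB11B-AS1, whose span ends 2 bases from that of ANGPTL4 on the opposite strand, had 7.25 and 6.19 CPM in shSMARCA4 and 4.76 and 5.76 CPM in control (0.36, SE 0.14, adjusted p = 0.0870 by edgeR). It passed without shSMARCA4 replicate 2 (adjusted p = 0.0475) and without control replicate 2 (adjusted p = 0.00244). Since counting did not use strand, reads that run past the end of ANGPTL4 cannot be told apart from reads of RAB11B-AS1. The others were HNRNPM (0.07, SE 0.038), MARCHF2 (0.27, SE 0.15), RPS28 (-0.02, SE 0.044), NDUFA7 (-0.05, SE 0.097), ENSG00000167774 (0.03, SE 0.090) and ENSG00000279827 (0.08, SE 0.053), of which none passed. HNRNPM passed without control replicate 1 (0.09, adjusted p = 0.0304). NDUFA7, RPS28 and ENSG00000167774 lay so near 0 that their sign turned when single libraries were left out.

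**Figure D4:**
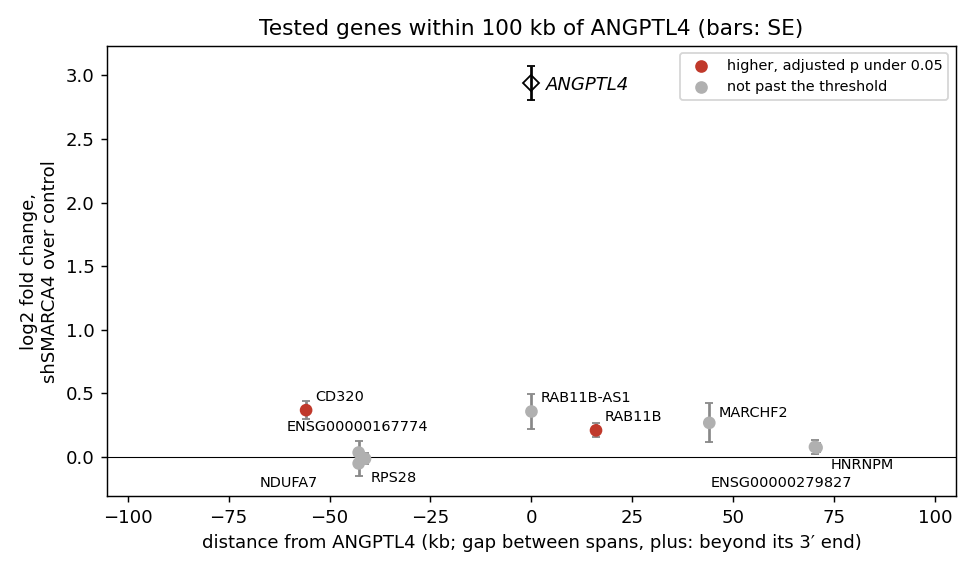
Log2 fold change of shSMARCA4 over control for the 9 tested genes within 100 kb of ANGPTL4, against the distance in kb between their spans, with SE bars and ANGPTL4 as an open diamond at 0. The neighbours lie between -0.05 and 0.37, and ANGPTL4, chosen by its rise, lies at 2.94.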

How the data were processed

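Expression was compared between 2 shSMARCA4 and 2 control libraries of FT190 cells, grouped by their labels. The deposited values are unnormalised counts, which the authors obtained with HOMER over exons of GENCODE release 45 on hg38, on both strands, with 1 transcript kept per gene and no adjustment, per the file header. Gene lengths are those of the deposited table. STAR 2.6.1c and DESeq2 1.19.38 appear in the submitters' processing notes. The header's command names 6 libraries. The deposited table holds counts of 4 of them, and all 4 are used here.

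The filter filterByExpr (minimum count 10) left 18781 genes. With TMM factors of 1.02 and 1.02 in shSMARCA4 and 0.976 and 0.990 in control, the quasi-likelihood test of edgeR 4.0.16 (R 4.3.3, two-sided) ran across all of them, adjusted after Benjamini-Hochberg at a threshold of 0.05. Rose and fell mean past this threshold. A standard error (SE) is the size of the log2 fold change divided by the root of F. CPM were computed from the deposited counts on the scaled totals, and the profile search added 0.5 CPM before logs. An exact permutation test of 2 against 2 cannot go below p = 0.33 and was not run. DESeq2 1.42.0 was an alternative. Both tools were checked on simulated counts with known folds, judged on genes with a mean of at least 100 counts. This limit was set after 2 criteria without it were met by edgeR but missed by DESeq2, which recovered fewer genes of low count.

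Members, lists and named genes were chosen with earlier results of these data known. The rule for named genes took all members, the neighbours of ANGPTL4, its 5 nearest profiles and up to 3 genes per list and direction by adjusted p. Other called genes of the lists, and all list genes named that were not called, were named after their values were seen. Values also came before the choice of motifs, promoter window and 0.5 CPM, and before ANGPTL4 was left out of the counts of every list. Sequences came from RefSeq promoter windows (GRCh38.p14) by symbol, and elements outside them were not analysed here. Some genes of the lists enter the counts but are not reported here by name.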

Additional observations from a re-analysis of the deposited data

How the results depend on the processing

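The 10 alternatives were other size factors (RLE), library totals alone, no filter or a 1 CPM filter, DESeq2, a replicate block and leaving out each library in turn. Where this leaves 1 library in a group, that library is assumed to vary like the others. Genes called higher numbered 2596 and lower 2976, against 1403 and 1784 with no filter on low counts and 1625 and 1930 with DESeq2. Leaving out 1 library gave 1724 to 3618 higher and 2077 to 3828 lower. With library totals alone, 59.5% of calls were higher, beside 46.6% in the fit reported, and the median of all genes moved by under 0.1 on the log2 scale. Members other than ANGPTL4 called higher numbered 2, against 1 with no filter, 1 with DESeq2 and 1 to 2 when leaving out a library. Members called lower numbered 1, against 0 with no filter, 2 with a replicate block and 1 to 3 when leaving out a library. The titles give replicate numbers that are not said to pair cultures, and deviations of same-numbered libraries correlated at 0.07. With the replicate block, 3187 genes were higher and 3562 lower.

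Signs turned for values near 0 alone. With library totals alone HADHA stood at 0.039 and RPS28 at 0.034. Leaving out each library in turn, HADHA ranged from -0.017 to 0.0041, ACADVL from -0.15 to 0.011, RPS28 from -0.038 to 0.011, NDUFA7 from -0.13 to 0.027 and ENSG00000167774 from -0.035 to 0.11. The causes were not tested. In shSMARCA4, ANGPTL4 ranked 4 per kilobase and 6 in plain CPM, and LIPG, LPIN1 and PLIN2 ranked 5, 6 and 3 per kilobase and 3, 5 and 4 in plain CPM. In controls, LIPG, LPIN1 and PLIN2 ranked 5, 4 and 3 per kilobase and 3, 5 and 4 in plain CPM. ANGPTL2, at 3 to 9 counts, fell under the filter, and a difference there was not detectable at this depth.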
